A study of Mus musculus with 18 samples.

Results

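Sham mice of 2 experiments served as baselines in this study of spreading depolarization, and their cortex was compared here directly. The optogenetic sham mice were heterozygous for Thy1-ChR2-YFP and belonged to the experiment in which light set off the depolarizations. The NaCl sham mice were wild type and belonged to the experiment in which KCl did so. All were females of 7 to 8 weeks, and the labels give the strain as C57BL/6 with no substrain. Each sham group had 3 mice and 1 cortex library per mouse, so the comparison took 6 of the 18 libraries. The other 12 came from 6 stimulated mice: the hemisphere with spreading depolarization (SD) and the contralateral hemisphere of 3 Thy1-ChR2-YFP mice stimulated with light (2 mW for 20 s), and of 3 wild-type mice given KCl, with 4 depolarizations in 2 h at 30 min intervals. The labels do not state what the optogenetic sham consisted of, nor from which hemisphere sham tissue was taken. Genotype, sham procedure and experiment change together between the sham groups, and their effects cannot be told apart. The 2 experiments were also deposited in separate tables, so every level below is set across tables. Of 13479 genes listed in either of the deposited tables, 13029 stand in both and have a value in every sham library. Of those, 12936 had a mean of at least 0.5 FPKM (fragments per kilobase of transcript, scaled to the mapped reads of the library) over the 12 sham and contralateral libraries and were tested.

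Channelrhodopsin-2 (ChR2) is an algal cation channel that opens in blue light. In Thy1-ChR2-YFP mice its gene, fused to that of a yellow fluorescent protein, is driven by regulatory sequence of Thy1, a gene for a surface glycoprotein of neurons and T cells, which gives expression mainly in projection neurons. In spreading depolarization neurons and glia lose their membrane potential almost fully, in a wave that creeps through grey matter. It is held to underlie the migraine aura and is known to induce immediate early genes such as Fos, Arc and Npas4. Sham mice stand for the cortex without that wave, so a gene that differs between sham groups can carry that difference into a comparison of levels across the experiments. C57BL/6 is a family of substrains that have drifted apart. C57BL/6J carries a multi-exon deletion in Nnt and an intronic variant of Gabra2 that lowers its transcript, and other C57BL/6 lines lack them.

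Thy1 (chromosome 9, 44043384 to 44048579, plus strand, GRCm38) was read as a check of the genotype labels. It had 426, 163 and 374 FPKM in the optogenetic sham libraries and 167, 164 and 167 FPKM in the NaCl sham libraries. Optogenetic contralateral libraries had 393, 615 and 592 FPKM and optogenetic SD libraries 412, 601 and 645 FPKM. All 9 libraries labelled wild type lay between 149 and 167 FPKM, with a mean of 161 ± 6.39 (SD, n = 9 libraries of 6 mice). The library labelled optogenetic sham replicate 2 was thus at 1.02 times the wild-type mean, while the other 8 Thy1-ChR2-YFP libraries were at 2.33 to 4.01 times it. Of all tested genes, Thy1 had the widest gap between those 8 libraries and the rest, 1.16 on the log2 scale, and the next gene, Gm9925, had 0.35. In all, 98 genes had those 8 libraries above the rest, and the same count with another optogenetic library set apart was 62 to 208. The sham difference of Thy1 was 0.83 (SE 0.29, adjusted p = 0.0861), and without this library it was 1.26 (adjusted p = 0.00461). The library was set apart because of its Thy1 value. Neither the gap of Thy1 nor its larger difference without this library is therefore an independent test. Whether transgene reads were assigned to Thy1 was not tested, since the tables list mouse genes and no transgene. The counts below, and the calls that end without this library, are given with and without it. NaCl sham replicate 1 also stood apart. It had 13.1 FPKM of Prl (prolactin), 12.4 FPKM of Avp (vasopressin) and 2.95 FPKM of Oxt (oxytocin), transcripts of pituitary and hypothalamus, against 0 FPKM of Prl and Avp and at most 0.17 FPKM of Oxt in NaCl sham replicates 2 and 3. These genes are listed in the KCl table only.

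The libraries otherwise read as cortex with variable amounts of neighbouring tissue. Summed over 15 deep-layer projection neuron markers, the level was 377 to 494 FPKM in optogenetic sham and 394 to 503 FPKM in NaCl sham libraries. Summed over 14 choroid plexus and ependymal markers it was 52.5 to 1352 FPKM in optogenetic sham and 55.6 to 1005 FPKM in NaCl sham libraries, and it moved with Ttr (transthyretin, the main product of choroid plexus), given further on. Over 11 striatal markers it was 128 to 325 FPKM in optogenetic sham and 96.0 to 297 FPKM in NaCl sham libraries. In bulk tissue, fewer cells of a type and less RNA per cell cannot be told apart. Across genes, log2(FPKM + 0.5) correlated at 0.977 to 0.985 among optogenetic sham libraries, at 0.980 to 0.983 among NaCl sham libraries and at 0.970 to 0.981 between the groups.

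Differences between the sham groups were many and mostly small. With limma on log2(FPKM + 0.5), 1632 of 12936 genes (12.6%) had a Benjamini-Hochberg adjusted p under 0.05, and such genes are called below. Of them, 1005 (7.77%) were higher and 627 (4.85%) lower in optogenetic sham than in NaCl sham. The median size of a called difference was 0.37 on the log2 scale, and 32 genes (0.247%) were called with a difference of at least 1, 26 higher and 6 lower. Without the library labelled optogenetic sham replicate 2, 775 genes were called, 518 higher (4%) and 257 lower (1.99%), and 749 of them were among the 1632. A fit with fewer libraries also has less power, and 878 genes were called without optogenetic sham replicate 1 and 997 without NaCl sham replicate 1, 642 higher (4.97%) and 355 lower (2.75%). With the 6 sham libraries fitted alone, 681 genes were called. In all, 4227 genes (32.7%) had sham groups that did not overlap.

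The contralateral hemispheres allowed a contrast between the systems in other mice. Those mice had depolarizations set off by light or by KCl, so the contrast carries the stimulation in place of the sham procedure. Contralateral libraries share no sample with the sham groups, and they come from the same mice as the SD hemispheres. Optogenetic contralateral minus KCl contralateral gave 1605 called genes (12.4%), 1096 higher (8.47%) and 509 lower (3.93%). Of the 1632 sham calls, 875 were also called in the contralateral libraries in the same direction, which is 53.6% of the sham calls and 54.5% of the contralateral ones. 1 gene was called in opposite directions, Nrg1. The sign was shared by 1582 of the 1632 sham calls (96.9%), against 72.0% of all tested genes. Contralateral groups were apart in the sham direction for 1296 of the sham calls (79.4%), where 34.1% of all genes had contralateral groups apart in either direction. Across all tested genes, which are not independent replicates, the differences correlated at r = 0.53 and rho = 0.58. In the SD hemispheres 2611 of 12930 genes (20.2%) were called, 1692 higher (13.1%) and 919 lower (7.11%), and the groups did not overlap for 39.6% of genes, 22.7% with the optogenetic libraries higher. In all, 778 genes were called in the same direction in sham, contralateral and SD libraries. For 1231 genes (9.52%) all 9 optogenetic libraries lay on one side of all 9 libraries of the KCl system, 835 above (6.45%) and 396 below (3.06%). The difference between the sham contrast and the contralateral contrast was tested too: the limma fit gave 0 calls, and 783 genes (6.05%) had a p under 0.05 before adjustment. By that unadjusted measure the sham contrast had 28.5% of genes and the contralateral contrast 28%. The difference between the contrasts is measured less precisely, with a median SE of 0.145 against 0.103 for the sham contrast. The 0 calls therefore do not show that the contrasts are alike.

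**Figure D1:**
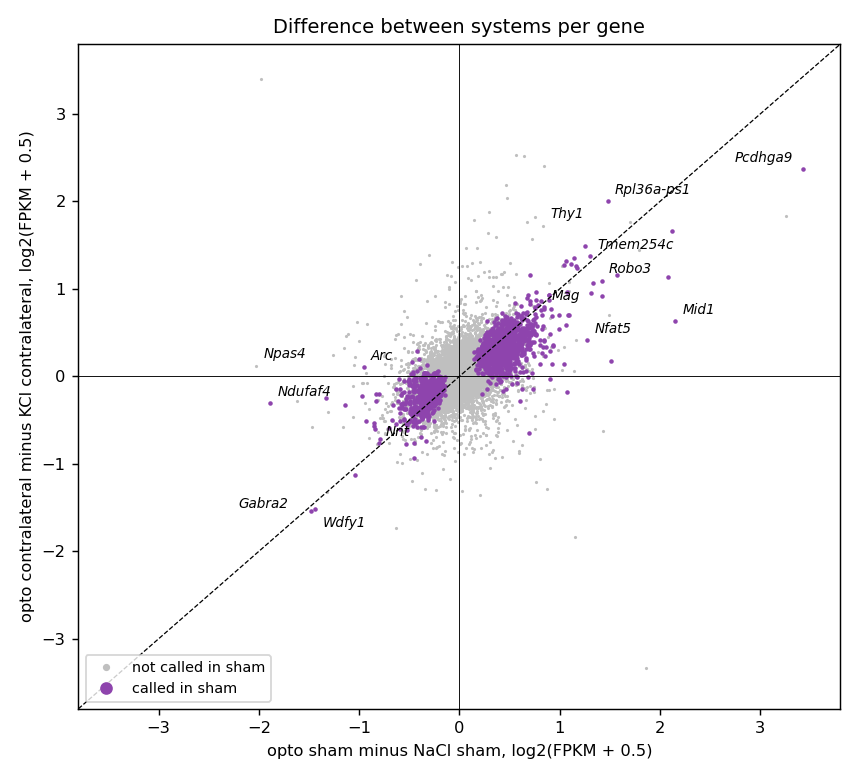
Each point is 1 of the 12936 tested genes. The horizontal axis gives optogenetic sham minus NaCl sham and the vertical axis optogenetic contralateral minus KCl contralateral, both in log2(FPKM + 0.5), with the dashed line at equality. Genes called in sham (purple) lie mostly at the lower left and upper right, Gabra2 and Wdfy1 near the line, and Mid1, Ndufaf4, Arc and Npas4 far from it.

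Genes known to vary between C57BL/6 substrains differed between the sham groups in both directions. Of 7 measured members of that list, 6 were called, 2 higher and 4 lower, against 7.77% of all tested genes higher and 4.85% lower, and 5 of them were called in the contralateral libraries in the same direction. Gabra2 (chromosome 5, 70957597 to 71095849, minus strand), the alpha 2 subunit of the GABA-A receptor, had 7.75, 9.23 and 11.1 FPKM in optogenetic sham and 29.5, 25.8 and 25.2 FPKM in NaCl sham. The groups averaged 9.35 ± 1.66 and 26.8 ± 2.34 FPKM (SD, n = 3 each), a difference of -1.48 (SE 0.11, adjusted p = 5.52e-05). Its contralateral difference was -1.54. Every one of the 9 optogenetic libraries was below every library of the KCl system.

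Wdfy1 (chromosome 1, 79702262 to 79776143, minus strand), an endosomal adaptor protein, had 2.66, 2.75 and 3.08 FPKM in optogenetic sham and 8.80, 8.74 and 7.98 FPKM in NaCl sham, a difference of -1.44 (SE 0.09, adjusted p = 4.2e-05). Nnt (chromosome 13, 119335448 to 119408997, minus strand), the mitochondrial transhydrogenase that makes NADPH, had 2.66, 2.36 and 2.53 FPKM in optogenetic sham and 4.71, 5.03 and 4.56 FPKM in NaCl sham, a difference of -0.80 (SE 0.07, adjusted p = 0.000211). Neither gene's sham groups overlapped, and both genes split all 18 libraries by system. The deposited Nnt value stands for the whole gene, so it does not show which exons were read. Of its longest annotated transcript, 96.3% of 100-base windows also lie in a transcript of another annotated gene, so the count of its reads is uncertain.

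Entpd4, a Golgi nucleotide diphosphatase, was higher in optogenetic sham by 0.75 (SE 0.07, adjusted p = 0.000305), and Ide, the insulin-degrading enzyme, by 0.69 (SE 0.12, adjusted p = 0.00546). Cyfip2, a regulator of actin at synapses, was lower by a difference of -0.22 (SE 0.06, adjusted p = 0.0314). The library labelled optogenetic sham replicate 2, which had wild-type Thy1, lay with the other optogenetic libraries in Gabra2, Wdfy1 and Nnt. Without it the differences were -1.48, -1.42 and -0.77 for these 3 genes, all still called, and Cyfip2 was not called (adjusted p = 0.0889). Substrain and transgene cannot be told apart in this design.

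**Figure D2:**
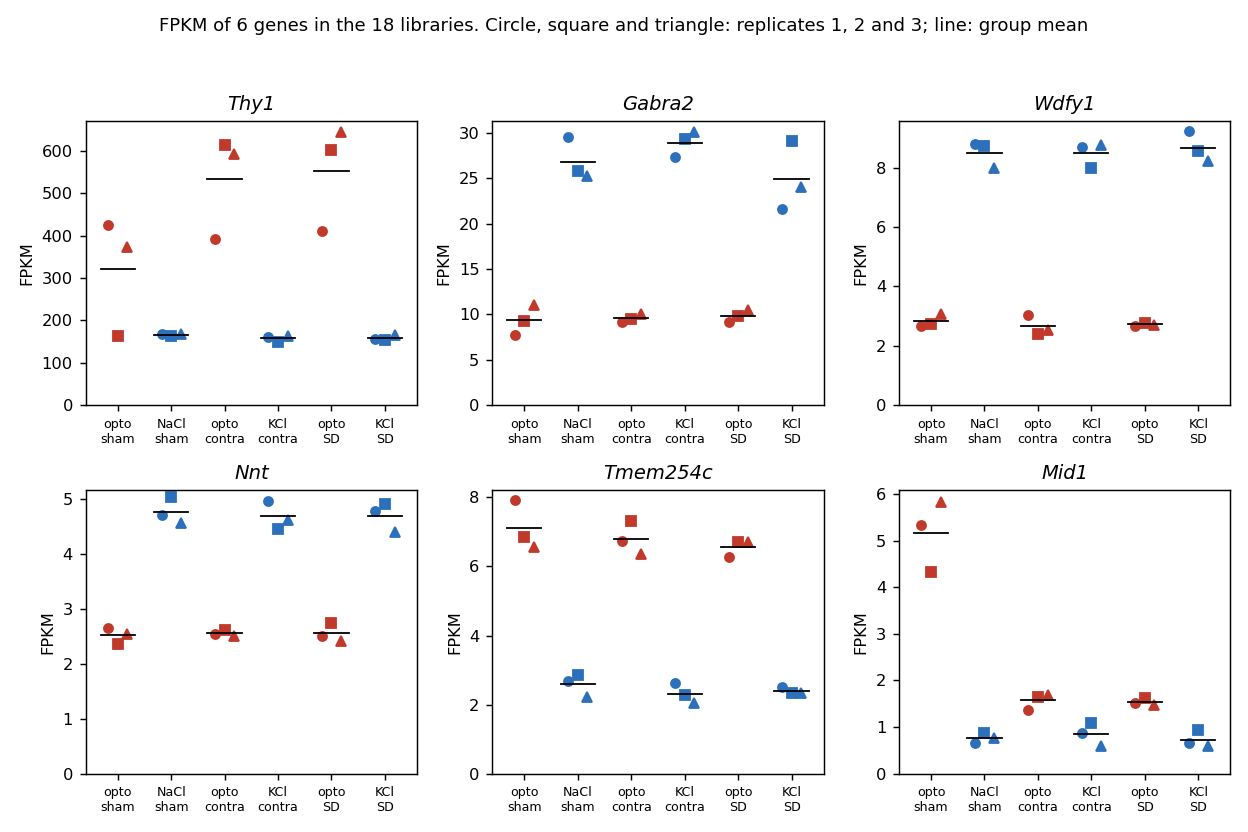
FPKM of 6 genes in each of the 18 libraries, in 6 groups of 3, with optogenetic groups in red and groups of the KCl system in blue. Gabra2, Wdfy1 and Nnt are lower and Tmem254c is higher in all 9 optogenetic libraries, Thy1 is higher in 8 of 9, and Mid1 is highest in the 3 optogenetic sham libraries, at 4.32 to 5.82 FPKM.

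Several of the other large rises were in genes that exist in near-identical copies. Tmem254a, Tmem254b and Tmem254c code for the same small transmembrane protein on chromosome 14 at 25923300 to 25927672, 26203369 to 26207041 and 26063919 to 26067355 (all minus strand). Entpd4 and Entpd4b lie on the same chromosome at 69337174 to 69367270 and 69555424 to 69585520 (plus strand). In the GENCODE M21 transcripts the coding sequences of the 3 Tmem254 copies (390 bases) are identical at all 390 positions, and those of Entpd4 and Entpd4b (1842 bases) at all 1842. The first 90 coding bases are shown because each stands for every copy of its family, and no base is in capitals because none differs between copies.
Tmem254a, Tmem254b and Tmem254c: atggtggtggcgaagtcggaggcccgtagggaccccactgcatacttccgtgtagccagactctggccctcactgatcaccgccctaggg
Entpd4 and Entpd4b: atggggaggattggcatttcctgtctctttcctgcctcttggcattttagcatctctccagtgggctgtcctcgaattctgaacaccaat

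Reads from these stretches cannot be assigned to 1 copy, so the values below describe each family and not its members. Tmem254c had 7.92, 6.85 and 6.57 FPKM in optogenetic sham and 2.70, 2.86 and 2.23 FPKM in NaCl sham, a difference of 1.30 (SE 0.11, adjusted p = 0.000152). Tmem254a and Tmem254b differed by 1.16 and 1.17, and Entpd4b by 0.89. Their neighbour Plac9b, which codes for a small secreted protein and has a copy in Plac9a, had 1.53, 1.39 and 2.43 FPKM in optogenetic sham and 0.61, 0.60 and 0.36 FPKM in NaCl sham, a difference of 1.14 (SE 0.19, adjusted p = 0.00403). The contralateral differences were 1.24 to 1.38 for the 3 Tmem254 genes and 1.35 for Plac9b. Rpl36a-ps1, annotated as a ribosomal protein pseudogene, also on chromosome 14, differed by 1.48 in sham and 2.01 in contralateral libraries, and 53.7% of its transcript windows are shared with another gene.

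Genes listed for only 1 of the experiments also included gene copies. The optogenetic tables alone listed 192 genes and the KCl tables alone 258. A sham mean of at least 1 FPKM was reached by 22 of the 192 and by 6 of the 258. Of those 22, 9 lie on chromosome 4 between 41 and 44 Mb, a stretch with repeated copies of chemokine genes. Ccl21b and Ccl21c code for copies of CCL21, the chemokine that draws T cells and dendritic cells to lymph nodes. Ccl21c and 1 of 2 identifiers of Ccl21b are given no chromosome here. Ccl21c had 3.10, 2.83 and 2.53 FPKM in optogenetic sham libraries, and 2.71 to 3.35 FPKM in the contralateral ones. Ccl21b had sham means of 4.35 and 1.65 FPKM. Capn11 (a calpain protease, 1.38 ± 1.17 FPKM, SD, n = 3), Plac9a (1.34 ± 0.43 FPKM) and Fam205a3 (1.23 ± 1.09 FPKM) were the other named genes of the optogenetic tables. These genes are not listed for the KCl system and have no value in its libraries. Every listed gene reached 0.5 FPKM in a group mean, and whether the unlisted ones fell below that was not tested. Within the same 41 to 44 Mb, 12 of 45 tested genes were called in sham, 9 higher and 3 lower, where 7.77% of all tested genes were higher and 4.85% lower. Among the KCl-only genes, the 6 with the highest NaCl sham means were Prl, Avp, Mb (myoglobin), Oxt, Ntf3 (neurotrophin 3) and Lnp1. Over NaCl sham replicates 2 and 3 alone, 1 of the 258 had a mean of at least 1 FPKM, Mb. Mb was at 0.88, 0.99 and 1.55 FPKM and Ntf3 at 1.87, 0.63 and 0.69 FPKM in the NaCl sham libraries.

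Mid1 (chromosome X, 169685199 to 170005736, plus strand), a microtubule-associated ubiquitin ligase whose mouse gene spans the pseudoautosomal boundary, stood out in sham. It had 5.34, 4.32 and 5.82 FPKM in optogenetic sham and 0.66, 0.88 and 0.77 FPKM in NaCl sham, a difference of 2.15 (SE 0.15, adjusted p = 5.52e-05). Optogenetic contralateral libraries had 1.38, 1.65 and 1.69 FPKM and KCl contralateral libraries 0.88, 1.09 and 0.59 FPKM, a difference of 0.63 (adjusted p = 0.021). The sham groups are therefore far apart, and the optogenetic sham libraries also lie above both hemispheres of stimulated Thy1-ChR2-YFP mice. The difference between the sham and the contralateral contrast had an adjusted p of 0.24 over the 12 libraries. In the fit of all 18 libraries it was 1.52 (SE 0.205, adjusted p = 0.0274), with both hemispheres of a stimulated mouse entered as separate libraries. With mouse as a random block it was 1.52 (SE 0.198, adjusted p = 0.0179). Mid1 was the only gene called in either of these fits. Erdr1, an erythroid differentiation regulator of the pseudoautosomal region that the files place on chromosome Y, had 29.8, 44.5 and 31.8 FPKM in optogenetic sham and 7.33, 20.9 and 15.9 FPKM in NaCl sham, a difference of 1.33 (SE 0.37, adjusted p = 0.04). Without the library labelled optogenetic sham replicate 2, Mid1 differed by 2.26 and was called, and Erdr1 by 1.16 and was not (adjusted p = 0.13).

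Among the other large rises, Robo3, an axon guidance receptor, had 5.68, 5.68 and 5.15 FPKM in optogenetic sham and 1.11, 2.42 and 1.91 FPKM in NaCl sham, a difference of 1.42 (SE 0.20, adjusted p = 0.00234), with 1.09 in contralateral libraries. Chac1, a glutathione-degrading enzyme induced by amino acid stress, had 3.91, 5.06 and 4.87 FPKM in optogenetic sham and 1.93, 1.72 and 1.90 FPKM in NaCl sham, a difference of 1.12 (SE 0.24, adjusted p = 0.0142), with 1.28 in contralateral libraries. Lrrc45, a centrosomal linker protein, differed by 1.09 (SE 0.08, adjusted p = 5.52e-05), with 0.70 in contralateral libraries. These 3 genes were apart in sham and were called on both contrasts, and without the library labelled optogenetic sham replicate 2 Chac1 was not called in sham (adjusted p = 0.0535). Nfat5, the transcription factor of the response to osmotic stress, had 7.77, 7.33 and 7.16 FPKM in optogenetic sham and 2.00, 3.88 and 2.71 FPKM in NaCl sham, a difference of 1.27 (SE 0.24, adjusted p = 0.00848). Its contralateral difference was 0.41 and was not called (adjusted p = 0.299). Pcdhga9, a protocadherin of the clustered gamma family, had 42.2, 13.1 and 38.6 FPKM in optogenetic sham and 2.02, 1.73 and 2.76 FPKM in NaCl sham, a difference of 3.43 (SE 0.62, adjusted p = 0.00644). It varied widely within groups elsewhere: optogenetic contralateral libraries had 7.49, 44.7 and 7.08 FPKM and optogenetic SD libraries 2.19, 3.23 and 44.02 FPKM. Of its longest transcript, 44.4% of windows are shared with another gene.

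Beside Gabra2 and Wdfy1, several large falls were called in sham and not in contralateral libraries, and for none of them was the difference between the contrasts called. Ndufaf4, an assembly factor of respiratory complex I, had 2.90, 2.23 and 2.00 FPKM in optogenetic sham and 10.1, 10.1 and 9.97 FPKM in NaCl sham, a difference of -1.89 (SE 0.50, adjusted p = 0.0332). Contralateral libraries of both systems held low and high values, 10.3, 3.22 and 2.06 FPKM in optogenetic and 3.14, 11.6 and 3.95 FPKM in KCl contralateral libraries, and the contralateral difference was not called. Lypd1, a Ly6-family regulator of nicotinic receptors, had 3.79, 7.02 and 4.14 FPKM in optogenetic sham and 17.2, 11.4 and 10.8 FPKM in NaCl sham, a difference of -1.33 (SE 0.28, adjusted p = 0.0141). Tceal7 differed by -1.14, Pde1a, a calmodulin-dependent phosphodiesterase, by -0.97, and Zfp36, which speeds the decay of mRNAs with AU-rich elements, by -0.85. None of these 4 was called in contralateral libraries. Dynlt1b, a dynein light chain with close copies, differed by -1.04 in sham and -1.13 in contralateral libraries and was called in both. Hist1h2ao and Hist1h2ap, histone H2A genes with 92.7% and 92.2% of transcript windows shared with other genes, differed by -0.85 and -0.84. Without the library labelled optogenetic sham replicate 2, Ndufaf4, Pde1a, Zfp36, Dynlt1b, Hist1h2ao and Hist1h2ap were not called (adjusted p = 0.0504 to 0.0921), and Lypd1 and Tceal7 were. Without NaCl sham replicate 1, Erdr1, Ndufaf4, Dynlt1b, Zfp36, Hist1h2ao and Hist1h2ap were not called (adjusted p = 0.0521 to 0.114).

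Genes of neuronal activity varied within both sham groups, and few were called. Summed over 35 immediate early genes the level was 439 to 654 FPKM in optogenetic sham and 568 to 790 FPKM in NaCl sham. Of these 35 genes, Per1 was called higher and Arc lower (5.71% called), where 12.6% of all tested genes were called. The median difference of the 35 was -0.22, against 0.01 over all tested genes. Without the library labelled optogenetic sham replicate 2 that median was -0.01. Arc (chromosome 15, 74669083 to 74672570, minus strand), a synaptic capsid-like protein, had 21.5, 19.5 and 19.2 FPKM in optogenetic sham and 45.5, 26.0 and 51.3 FPKM in NaCl sham, a difference of -0.95 (SE 0.26, adjusted p = 0.0347). Contralateral libraries had 23.4, 18.5 and 22.5 FPKM (optogenetic) and 13.7, 20.9 and 26.9 FPKM (KCl), a difference of 0.11 that was not called. Leaving out any optogenetic sham library, or NaCl sham replicate 1 or 3, ended the Arc call (adjusted p = 0.0726 to 0.107).

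Npas4, a transcription factor induced by calcium entry, had 1.99, 1.41 and 9.90 FPKM in optogenetic sham and 27.5, 1.81 and 51.4 FPKM in NaCl sham. The groups overlapped and it was not called (difference -2.03, SE 0.95, adjusted p = 0.188). Fos had 9.19, 5.89 and 23.1 FPKM in optogenetic sham and 48.0, 14.2 and 30.8 FPKM in NaCl sham (difference -1.31, SE 0.48, adjusted p = 0.097), and Ptgs2, the inducible cyclooxygenase, 3.32, 2.15 and 7.94 FPKM against 11.4, 3.60 and 8.91 FPKM (difference -0.81, adjusted p = 0.24). In all 3 genes NaCl sham replicate 2 was the lowest of its group, and optogenetic sham replicate 3 the highest of its group. In SD hemispheres Npas4 reached 181 to 256 FPKM in optogenetic and 177 to 221 FPKM in KCl libraries, well above any sham library.

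Per1, a clock gene that is also induced by activity, was higher in optogenetic sham, with 16.6, 13.9 and 15.9 FPKM against 12.01, 10.6 and 11.0 FPKM in NaCl sham (difference 0.44, SE 0.08, adjusted p = 0.00663). Per3 differed by 0.41 (SE 0.10, adjusted p = 0.0213), and no other of 18 clock genes was called. These 2 calls make 11.1% of the list, where 12.6% of all tested genes were called. No clock gene was called in contralateral libraries. Per3 was not called without the library labelled optogenetic sham replicate 2 (adjusted p = 0.0798). Cited2, a CBP/p300-binding transcriptional regulator, had 4.08, 6.51 and 4.68 FPKM in optogenetic sham and 10.8, 8.51 and 10.8 FPKM in NaCl sham (difference -0.93, SE 0.18, adjusted p = 0.00801). In SD hemispheres Cited2 was also lower in the optogenetic than in the KCl libraries, by a difference of -0.93. Of 15 feedback regulators of MAP kinase, 1 was called lower, Errfi1, an inhibitor of EGF receptors (-0.35), where 4.85% of all tested genes were lower. Of these 15 differences, 14 were negative, and the median was -0.24. Of 15 glucocorticoid-responsive genes, Ddit4, an inhibitor of mTORC1, was higher, at 40.0, 40.5 and 45.6 FPKM in optogenetic sham and 23.1, 25.9 and 29.5 FPKM in NaCl sham (difference 0.68, SE 0.09, adjusted p = 0.00149), and Errfi1 was the 1 called lower. These 2 genes make 13.3% of the glucocorticoid list, and both were called in contralateral libraries in the same direction. Errfi1 was not called without the library labelled optogenetic sham replicate 2 (adjusted p = 0.134), nor without NaCl sham replicate 1 (adjusted p = 0.0987). The time of day and the delay to tissue collection are not given in the sources used here.

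**Figure D3:**
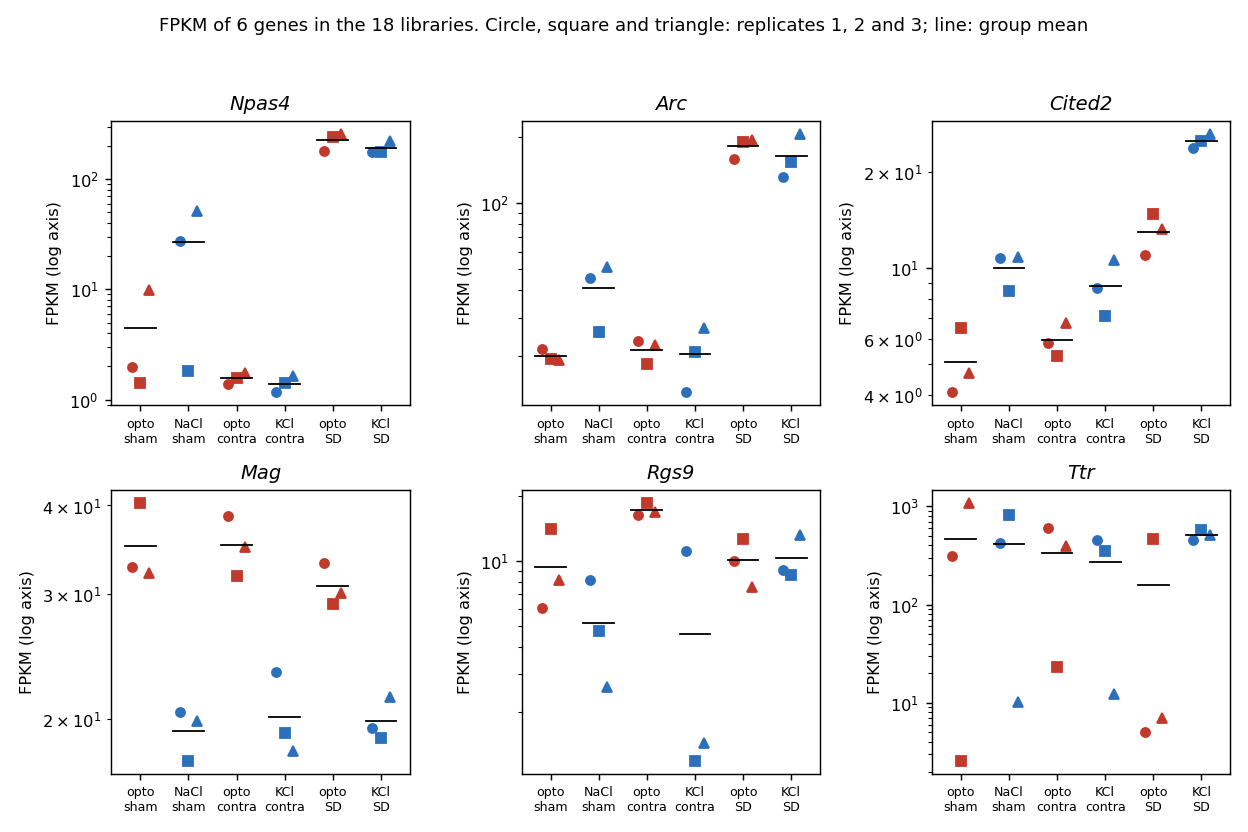
FPKM on a log axis of 3 activity-related genes (Npas4, Arc, Cited2), Mag (myelin), Rgs9 (striatum) and Ttr (choroid plexus) in each of the 18 libraries, with optogenetic groups in red and groups of the KCl system in blue. Npas4 ranges from 1.81 to 51.4 FPKM among NaCl sham libraries and Ttr from 2.57 to 1088 FPKM among optogenetic sham libraries, while Mag separates the systems in all 18.

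Of 36 glutamate and GABA receptor subunits, 2 were called higher and 5 lower, where 7.77% of all tested genes were higher and 4.85% lower, and the median was -0.05. Beside Gabra2 the lower ones were Gabbr2, a subunit of the GABA-B receptor, at 52.6, 52.8 and 53.3 FPKM in optogenetic sham and 64.5, 71.9 and 74.7 FPKM in NaCl sham (difference -0.41, SE 0.05, adjusted p = 0.00145), then Grin3a, an NMDA receptor subunit (-0.35), and the GABA-A subunits Gabrb2 (-0.31) and Gabra3 (-0.27). The higher ones were Gabrd, the delta subunit of extrasynaptic GABA-A receptors (0.43), and Grik5, a kainate receptor subunit (0.31). Gabra2, Gabbr2, Gabrd and Grik5 were called in the contralateral libraries in the same direction, and Gabrb2, Gabra3 and Grin3a were not called there. Without the library labelled optogenetic sham replicate 2, 2 of the 36 were called higher and 2 lower, and Gabrb2, Gabra3 and Grin3a were not called (adjusted p = 0.0754 to 0.133).

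Of 44 potassium, sodium and calcium channel genes, 7 were called higher and 0 lower, where 7.77% of all tested genes were higher and 4.85% lower. All 3 T-type calcium channel genes were among them: Cacna1g differed by 0.54 (SE 0.13, adjusted p = 0.0216), Cacna1h by 0.48 (SE 0.10, adjusted p = 0.0106) and Cacna1i by 0.48 (SE 0.11, adjusted p = 0.0181). The others included the fast potassium channel Kcnc1 (0.30) and the pacemaker channel Hcn2 (0.35). With each library's trend on GC content and length removed, 1 of the 44 was still called, and without the library labelled optogenetic sham replicate 2, 3 were, where 4% of all genes were then called higher. Cacna1g and Cacna1h were among these 3, and Cacna1i, Kcnc1 and Hcn2 were not called (adjusted p = 0.0603 to 0.0679).

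Of 14 oligodendrocyte markers, 4 were called higher in optogenetic sham and 0 lower, where 7.77% of all tested genes were higher. All 14 had a positive difference, with a median of 0.31, against 0.01 over all tested genes. Mag, the myelin-associated glycoprotein, had 32.8, 40.4 and 32.2 FPKM in optogenetic sham and 20.4, 17.4 and 19.8 FPKM in NaCl sham, a difference of 0.85 (SE 0.12, adjusted p = 0.00194), with 0.79 in contralateral libraries, and it split all 18 libraries by system. Cnp, a phosphodiesterase of myelin, differed by 0.50 (SE 0.12), Ugt8a, which makes the myelin lipid galactosylceramide, by 0.41 (SE 0.11) and Mbp, myelin basic protein, by 0.35 (SE 0.10). Their sum over the list was 747 to 1036 FPKM in optogenetic sham and 677 to 738 FPKM in NaCl sham libraries. The library labelled optogenetic sham replicate 2 was the highest, and without it 1 of the 14 was called, Mag, with a median of 0.17. Precursor markers were not called in either direction, 0 of 10, and the 2 with the smallest p were Olig1 (difference 0.25) and Cspg4 (0.19).

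In each of the other lists of glial, vascular, meningeal and blood cells at most 1 marker was called. Over all tested genes 12.6% were called, 7.77% higher and 4.85% lower. Of 14 astrocyte markers, Mlc1, a membrane protein of astrocyte endfeet, was called higher (0.28, adjusted p = 0.04), and Gfap was not called, with 32.7, 29.5 and 40.1 FPKM in optogenetic sham and 32.7, 28.7 and 27.0 FPKM in NaCl sham. Of 14 microglia markers, Trem2, a lipid receptor, was called higher (0.41, adjusted p = 0.0405), while 7 of the 14 differences were positive and their median was -0.02. Neither Mlc1 (adjusted p = 0.0924) nor Trem2 (adjusted p = 0.115) was called without the library labelled optogenetic sham replicate 2. Neither gene was called in contralateral libraries. Of 10 pericyte and smooth muscle markers, Myh11, smooth muscle myosin, was called lower, with 0.96, 0.93 and 1.12 FPKM in optogenetic sham and 1.94, 1.72 and 1.65 FPKM in NaCl sham (difference -0.59, SE 0.09, adjusted p = 0.00242), and it was called in contralateral libraries too (-0.51). Of 13 meningeal fibroblast markers, 12 differences were negative with a median of -0.37, and 1 was called, Aldh1a2, which makes retinoic acid (-0.58, adjusted p = 0.036). No meningeal fibroblast marker was called in contralateral libraries. The summed level of that list was 33.7 to 66.8 FPKM in optogenetic sham and 50.3 to 69.1 FPKM in NaCl sham, lowest in the library labelled optogenetic sham replicate 2, and without that library none was called and the median was -0.19. No endothelial marker was called, 0 of 14, with Kdr at -0.53 (adjusted p = 0.128). Of 6 red blood cell genes, 1 was called, Bpgm, which makes 2,3-bisphosphoglycerate (-0.36), while the other 5 differences were positive and the median of the 6 was 0.19. Hbb-bs (beta-globin) had 164, 147 and 353 FPKM in optogenetic sham and 154, 200 and 120 FPKM in NaCl sham.

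Neuron subtypes and neighbouring regions were compared in the same way, against 7.77% of all tested genes called higher and 4.85% lower. Of 15 deep-layer markers, 13 differences were negative with a median of -0.28, and 2 were called lower: Ctgf, a matrix protein of layer 6b, at 6.41, 7.14 and 6.58 FPKM in optogenetic sham and 12.4, 9.52 and 10.1 FPKM in NaCl sham (difference -0.63, SE 0.11, adjusted p = 0.00633), and Parm1 (-0.42). Without the library labelled optogenetic sham replicate 2, 1 of these 15 was called. Of 12 upper-layer markers, Calb1, a calcium buffer, was called lower (-0.30). Of 15 interneuron markers, Sst (somatostatin) was called lower (-0.28), at 206, 198 and 212 FPKM in optogenetic sham and 258, 246 and 242 FPKM in NaCl sham. Neither Calb1 nor Sst was called without the library labelled optogenetic sham replicate 2 (adjusted p = 0.0623 and 0.0633) or without NaCl sham replicate 1 (adjusted p = 0.0687 and 0.0521). Neither gene was called in contralateral libraries. No striatal marker was called in sham, 0 of 11, although the median was 0.36: Rgs9, a regulator of striatal dopamine signalling, had 6.02, 14.01 and 8.17 FPKM in optogenetic sham and 8.18, 4.75 and 2.60 FPKM in NaCl sham. In contralateral libraries Rgs9 had 16.3, 18.6 and 16.9 FPKM (optogenetic) and 11.1, 1.19 and 1.43 FPKM (KCl), and was called higher (2.40, adjusted p = 0.0329). Hippocampal, thalamic and hypothalamic, olfactory and septal, and choroid plexus lists had no called member in sham, and Ttr had 311, 2.57 and 1088 FPKM in optogenetic sham and 424, 817 and 10.3 FPKM in NaCl sham. The share of these tissues in the libraries moved within each sham group, and its part in the differences above was not tested.

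**Figure D4:**
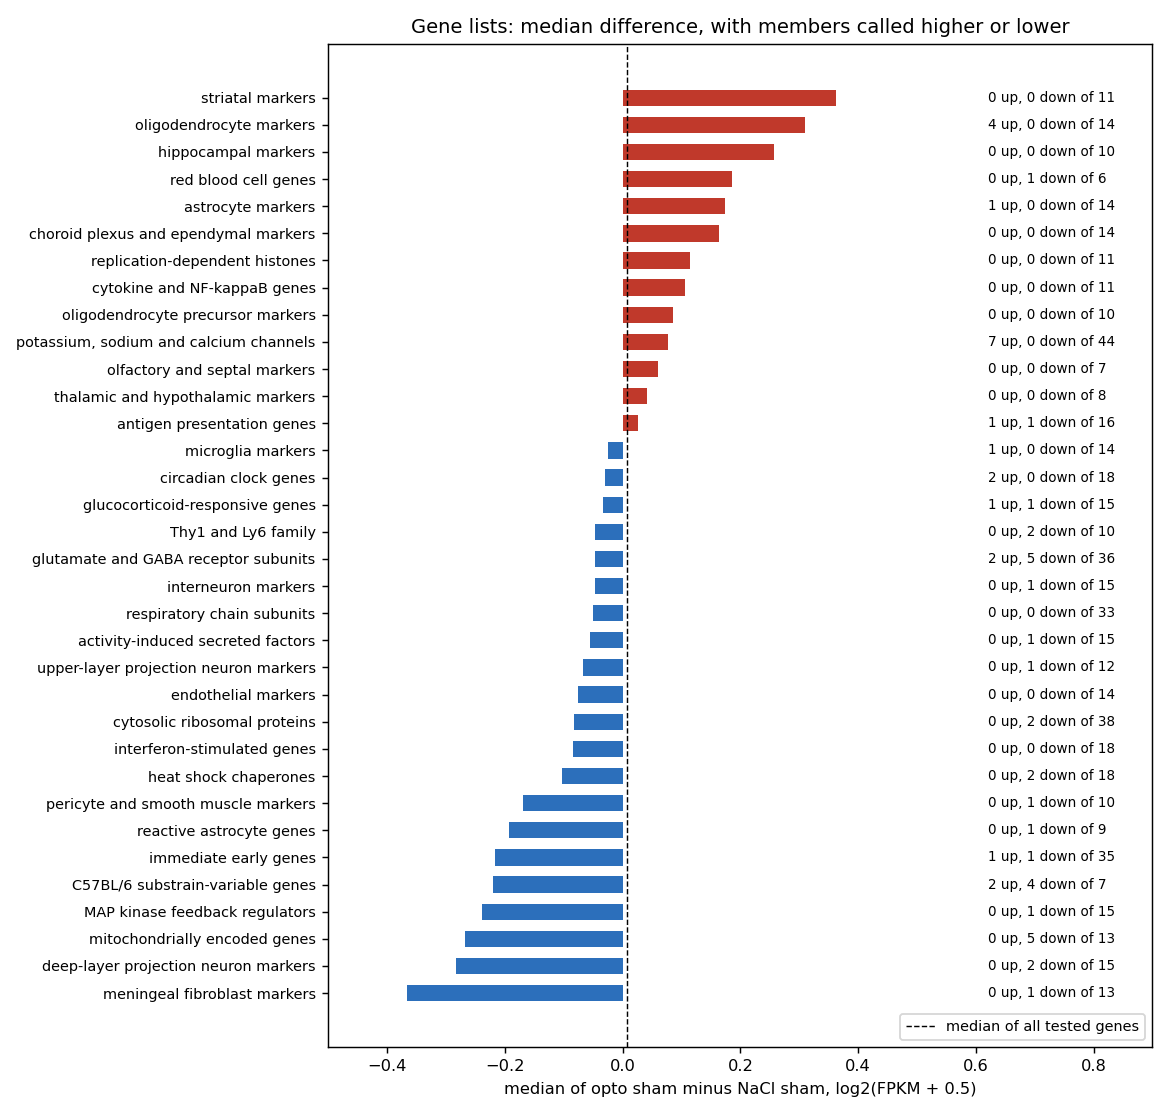
Bars give the median difference, optogenetic sham minus NaCl sham in log2(FPKM + 0.5), of each of 34 gene lists, and the text at the right gives how many measured members were called higher (up) or lower (down). The dashed line is the median of all 12936 tested genes, 0.01. Striatal and oligodendrocyte markers have the most positive medians (0.36 and 0.31) and meningeal fibroblast and deep-layer markers the most negative (-0.37 and -0.28).

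Of 13 transcripts of the mitochondrial genome, 5 were called lower in optogenetic sham, where 4.85% of all tested genes were lower, and 12 differences were negative, with a median of -0.27. mt-Nd5, a complex I subunit, differed by -0.46 (SE 0.08, adjusted p = 0.00724), and mt-Nd4l, mt-Cytb, mt-Nd4 and mt-Nd1 by -0.38 to -0.33. In contralateral libraries 10 of the 13 were called lower, where 3.93% of all genes were. The summed level of the list was 32160 to 36600 FPKM in optogenetic sham and 36730 to 47410 FPKM in NaCl sham, and NaCl sham replicate 3 was the lowest of its group. With the trend on GC content and length removed, 1 of the 13 was called higher and 1 lower, and without the library labelled optogenetic sham replicate 2, 1 was called lower, mt-Nd5. None of 33 respiratory chain subunits encoded in the nucleus was called in sham, and the smallest p values were those of Uqcrh (-0.18, adjusted p = 0.0536) and Atp5e (0.38, adjusted p = 0.0554). With the GC and length trend removed 4 of the 33 were called higher, and without NaCl sham replicate 1, 2 were. Of 38 cytosolic ribosomal proteins, 2 were called lower (5.26%), among them Rpl5 (-0.20), where 4.85% of all tested genes were lower. Of 18 heat shock chaperones, Dnajb4 (-0.36) and Dnajb1 (-0.27) were called lower (11.1%), and no chaperone was called in contralateral libraries. Of 16 antigen presentation genes, 2 (12.5%) were called, where 12.6% of all tested genes were. Tapbp, which loads peptides on class I molecules, was higher (0.44) and B2m, the light chain of class I molecules, lower (-0.30). Both were also called in contralateral libraries. No interferon-stimulated gene (0 of 18) and no cytokine or NF-kappaB gene (0 of 11) was called. Of 9 reactive astrocyte genes, S100a10, a partner of annexin A2, was called lower (-0.47), and it was not called in contralateral libraries. Rpl5, Dnajb1 and B2m were not called without the library labelled optogenetic sham replicate 2 (adjusted p = 0.0622 to 0.0634).

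GC content of the transcript went with the direction of the difference. Genes called higher in optogenetic sham had a median GC content of 55.9%, genes called lower 46.0% and all tested genes 49.8%. Among the 1291 genes richest in GC, 23.2% were called higher and 1.86% lower. Among the 1292 poorest in GC, 1.78% were called higher and 8.2% lower. The median deviation of the richest of these 10 bins minus that of the poorest was 0.124 to 0.193 in all 9 optogenetic libraries and -0.259 to -0.027 in all 9 libraries of the KCl system. With each library's trend on GC content and transcript length removed, a setting chosen after these values were seen, 1190 genes were called in sham, 626 higher and 564 lower, and 920 of them were among the 1632. The share of calls that were higher was then 52.6%, against 61.6% with FPKM as deposited. In contralateral libraries 868 genes were called in that setting, 428 higher and 440 lower, and the share that were higher was 49.3%, against 68.3% with FPKM as deposited. Gabra2, Wdfy1, Nnt, Mid1, the Tmem254 genes, Robo3, Chac1, Mag and Arc were called with and without it. Grik5, Hcn2, Cacna1h, Per1, B2m, Mlc1, Trem2 and Erdr1 were not called with the trend removed. Neither were Cacna1g, Cacna1i, Kcnc1, Gabrb2, Gabra3, Mbp, Calb1, Errfi1, Rpl5, mt-Nd4l, mt-Cytb, mt-Nd4 and mt-Nd1. GC content moved with the experiment, and its part in the differences was not tested.

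**Figure D5:**
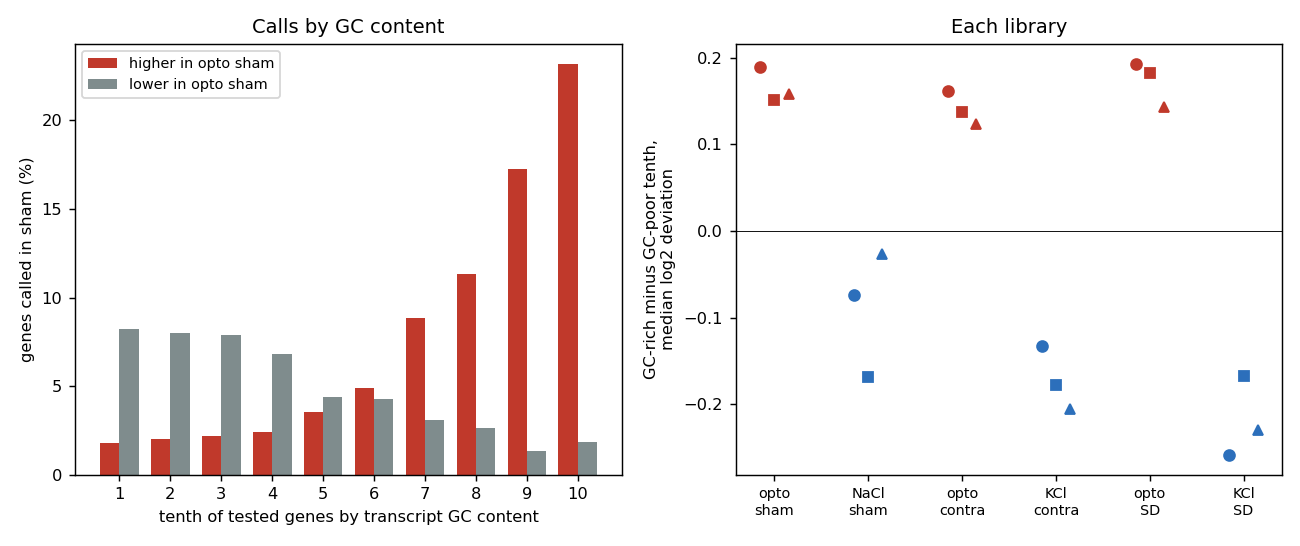
Left, the percentage of genes called higher (red) or lower (grey) in optogenetic sham, by 10 bins of transcript GC content from the poorest (1) to the richest (10). Right, for each library the median deviation of the GC-richest bin minus that of the poorest, on the log2 scale. All 9 optogenetic libraries lie above 0 and all 9 libraries of the KCl system below it.

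No gene was called for a difference between the sham and the contralateral contrast over the 12 libraries, and the genes nearest to a call are given by their values. Beside Mid1 the smallest p values belonged to Nrg1 and Ccl27b (adjusted p = 0.30 for both). Nrg1, the ErbB ligand neuregulin 1, had 1.33, 1.44 and 1.502 FPKM in optogenetic sham and 0.57, 0.68 and 0.84 FPKM in NaCl sham (difference 0.69, SE 0.15, adjusted p = 0.015). In contralateral libraries it had 0.58, 0.52 and 0.54 FPKM (optogenetic) and 1.18, 1.54 and 0.81 FPKM (KCl), a difference of -0.65 (adjusted p = 0.0178). Without NaCl sham replicate 1 its sham call ended (adjusted p = 0.0508). Ccl27b, a chemokine copy on chromosome 4, was listed at 0 in the 3 optogenetic sham libraries and at 0, 4.71 and 2.44 FPKM in NaCl sham libraries. It had 4.88, 5.07 and 4.42 FPKM in optogenetic contralateral libraries and was listed at 0 in the KCl contralateral ones. Of its transcript, 97.9% of windows are shared with another gene. Phc3, a Polycomb protein, did not separate the sham groups (5.62, 6.19 and 4.26 FPKM in optogenetic and 3.51, 5.01 and 5.11 FPKM in NaCl sham). All 6 sham libraries were above the 6 contralateral ones, which had 0.905 to 1.12 FPKM in both systems.

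By position, called genes were spread over all chromosomes. Among autosomes the share called ran from 8.23% on chromosome 18 to 17.3% on chromosomes 15 and 19. Chromosomes 11, 15, 17 and 7 had the highest median GC content, at 52.6% to 52.8%. The 10 Mb window with the most calls was chromosome 17 from 20000001 to 30000000, with 43 of 166 tested genes (25.9%), 40 of them higher in optogenetic sham, where 12.6% of all tested genes were called and 7.77% were higher. On chromosome X, 13 of 444 genes were called higher and 39 lower, where 7.77% of all tested genes were higher and 4.85% lower. Its median GC content was 45.5%, the lowest of the nuclear chromosomes, against 49.8% over all tested genes.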

How the data were processed

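Poly(A)-selected cortex RNA of 18 libraries from 12 mice was sequenced with a strand-specific kit, per the labels. The deposited values used are FPKM per gene and library, computed by the authors with StringTie on GRCm38, per the submitters' processing notes. The annotation and versions are not given in the sources used here. No read counts are given, so depth is unknown; listed FPKM sum to 217205 to 237318 per library. The tables were checked to list genes reaching 0.5 FPKM in a group mean, and 6 lines without data were left out. Each experiment has its own tables.

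Tables were joined on gene identifier (Python 3.11.15, pandas 2.3.3). The main model, in limma 3.58.1 (R 4.3.3), took log2(FPKM + 0.5) of 4 groups of 3 libraries, all from different mice, with a prior variance following the mean. SD hemispheres entered a fit of 18 libraries without a mouse term, though both hemispheres of each stimulated mouse were in it. With mouse as a random block (correlation 0.201), 2624 genes were called in SD hemispheres, against 2611. Differences are optogenetic minus the other system and understate changes of low genes. In the main model the p-values measure the spread between these mice. GC content, length and transcripts came from GENCODE M21, matched for 99.8% of genes. Genes were named by rule: the 12 largest called rises and falls with an established symbol and groups apart, up to 3 called members or 2 others per list, the largest or smallest-p genes of the other contrasts, and a few preset ones. List members beyond these, and Gm9925, were named after their values were seen. A few genes that the rule names are not reported here. The comparison, members and lists were chosen with earlier results of these data known. The fit was tested on simulated data.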

Additional observations from a re-analysis of the deposited data

How the results depend on the processing

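Depth is unknown, and 3 mice per group limit the precision. The sham count ran from 775 to 1667 and the contralateral count from 825 to 1704 with 1 library left out, the SD count from 1670 to 2729, the shared count from 524 to 768 and the count for the difference between the contrasts from 0 to 3. The contralateral count was 886 and 873 without optogenetic replicates 2 and 3, and 917 and 825 without KCl replicates 2 and 3, and the SD count 1670 without KCl replicate 1. Fitting the 6 libraries alone gave 681 sham calls and 376 shared. Both fits of 18 libraries gave 1 call for the difference between the contrasts. Requiring a difference of at least 1 gave 32 sham, 36 contralateral, 38 SD and 17 shared calls. With the GC and length trend removed there were 868 contralateral, 1382 SD and 472 shared calls. Without optogenetic sham replicate 3 and NaCl sham replicate 1 together there were 640 sham and 482 shared calls, and 1 for the difference between the contrasts. The last 2 settings were chosen after seeing the data. Quantile normalization gave 871 higher and 652 lower contralateral calls, against 1096 and 509. The shared numbers did not pair the mice, with same-number correlations of -0.119, -0.11 and -0.27 between sham groups, and a replicate block gave 1352 sham calls. Differences of Ttr, Timm22, Rxrg, Cspg4 and Tbl1xr1 changed sign, and none of these genes was called in sham. That of mt-Nd4l, which was called, was 0.00 after quantile normalization. Leaving out 1 library, Ttr ran from -2.54 to 1.91 (1.91 without optogenetic sham replicate 2, 0.11 and 0.58 without NaCl sham replicates 1 and 2), Timm22 from -0.49 to 0.11 and Rxrg from -0.0227 to 0.76. Cspg4 was at -0.013 with the GC trend removed, and Tbl1xr1 at -0.12 without both libraries. Over the named genes, 2101 values kept direction and call, 257 lost the call and 35 gained it. The causes were not tested.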
